A study of Sus scrofa with 20 samples.

Results

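The cytosolic ribosomal protein genes were examined in the amygdala of 20 German Landrace pigs labelled as adult, 10 of high-reactive (HR) and 10 of low-reactive (LR) coping behavior. Members were taken from the gene symbols that annotate the porcine Snowball array: every symbol that starts with RPL or RPS followed by a digit, together with RPLP0, RPLP1, RPLP2 and RPSA, and without the RPS6K kinases. This gave 64 of the 13755 symbols on the array, carried by 208 probe sets, of which 38 symbols name large subunit proteins and 25 small subunit proteins. The remaining one, RPS19BP1, meets the rule by its letters but encodes a binding partner of RPS19 and no part of the ribosome. The amygdala is a forebrain region that takes part in fear and stress responses, and coping behavior describes how a pig meets a stressor. The study chose the animals from the extremes of an early-life restraint test (the backtest) and by their haplotype at a coping-associated region of chromosome 12, so coping behavior and haplotype cannot be told apart here. Each animal gave 1 array of bulk tissue, in which fewer cells of a type and less RNA per cell cannot be told apart.

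The cytosolic ribosome joins a large and a small subunit, each a core of ribosomal RNA dressed with proteins. The small subunit reads the messenger RNA, the large subunit forms the peptide bonds, and the growing chain leaves through a tunnel whose mouth is ringed by large subunit proteins. Most ribosomal protein mRNAs begin with a tract of pyrimidines (they are called TOP mRNAs) and are translated under the control of the kinase complex mTORC1. In neurons ribosomes also work in dendrites near synapses, where protein synthesis accompanies lasting synaptic change.

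All values are normalized signals on the log2 scale, where a difference of 1 is a doubling, and all differences are HR minus LR. A probe set is the group of short probes that together give 1 value on an array. The 20 array medians lay between 5.14 and 5.22. The 69 antigenomic background probe sets, which match no pig gene, averaged 4.21 ± 0.13 in HR and 4.08 ± 0.15 in LR (SD, n = 10 each). LR replicate 3 stood apart with a background of 3.71, and the 4 arrays least like the rest were HR replicates 4 and 6 and LR replicates 2 and 3. Probe sets were tested where their mean over all arrays reached 5.18, the median of the table, which left 23860. Markers of the labelled tissue were bright, with means of 11.5 in HR and 11.7 in LR for the neuronal SNAP25, 11.5 and 11.3 for the astrocyte GFAP, and 13.0 in both for the oligodendrocyte MBP. Of 68 genes listed for neurons, glia, vessels, choroid plexus and blood, 57 were on the array and 54 were tested. The mean of the choroid plexus list, led by the transport protein TTR, ranged over 6.13 to 8.63 in HR and 6.10 to 8.15 in LR.

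Of the 208 member probe sets, 87 were bright enough to test, and they covered 53 of the 64 genes: 33 large subunit genes, 19 small subunit genes and RPS19BP1. Their means ran from 5.19 to 12.4. The 11 genes with no tested probe set were RPL10, RPL11, RPL18, RPL29, RPL36A, RPS3A, RPS4X, RPS14, RPS15, RPS20 and RPS29. RefSeq lists RPS4, which was tested, as a synonym of RPS4X, so these symbols may name 1 gene, which would make 63 genes with 10 untested. The 11 symbols' 18 probe sets had means between 1.84 and 5.06. Among these 18, 9 lay below the background mean of the array on all 20 arrays. RPL11 was one of them, with a mean of 3.40 ± 0.18 in HR and 3.44 ± 0.22 in LR (SD, n = 10 each). Signals this low cannot tell a scarce transcript from a probe set that does not read it, which was not tested. The array annotation does not name another 21 symbols of the family that RefSeq lists for the pig (assembly Sscrofa11.1, used only for names and gene order), among them RPL13A and RPL15, so they are not described. Members lay on 16 chromosomes, with at most 13 on one. The 4 on chromosome 12, which holds the coping-associated region, were RPL19, RPL23, RPL26 and RPL27, and 0 of them lay between METTL16 and ATP1B2, genes that the study places in that region. The full extent of the region was not determined here, so a member outside these 2 genes may still lie in it.

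The comparison of HR with LR asked whether ribosomal protein transcripts differed with coping behavior. No member passed an adjusted p of 0.05 in limma (Benjamini-Hochberg over all tested probe sets), and the lowest adjusted p of a member was 0.157. Over the whole array 2 of 23860 probe sets passed, 0.00838%. At an unadjusted limma p under 0.05, 8 of the 87 member probe sets were higher in HR and 13 were lower in HR, or 9.20% and 14.9%. Over all tested probe sets the shares were 12.3% higher and 14.0% lower in HR. The members thus had about the background share of lower values and somewhat less than the background share of higher values. Their median difference was 0.03, against 0.05 over all tested probe sets, and 0 of the 87 separated the HR animals from the LR animals without overlap, against 0.00419% of all tested probe sets.

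Many probe sets carried the same symbol, so each gene was also read from its brightest probe set. On that count 3 of the 53 genes were higher and 8 were lower in HR at an unadjusted p under 0.05, against 14.4% higher and 15.6% lower among all 10307 tested genes. In mean, 27 of the 53 genes were higher and 26 were lower in HR, with a median difference of 0.00. Among all 10307 tested genes 5991 were higher and 4316 lower in mean, with a median difference of 0.05. Without LR replicate 3, 1 of the 3 higher genes (RPL35) and 6 of the 8 lower genes kept an unadjusted p under 0.05, and RPL13, RPLP0, RPL9 and RPS6 did not. The 3 higher genes and 7 of the 8 lower genes belonged to the large subunit, and RPS6 was the one from the small subunit. The large subunit had 3 higher and 7 lower among its 33 genes and the small subunit 0 higher and 1 lower among its 19, and the difference between the subunits was not tested. The median difference was -0.01 for the large and 0.03 for the small subunit, and across its genes the differences spanned -0.29 to 0.26 in the large and -0.24 to 0.14 in the small subunit.

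**Figure D1:**
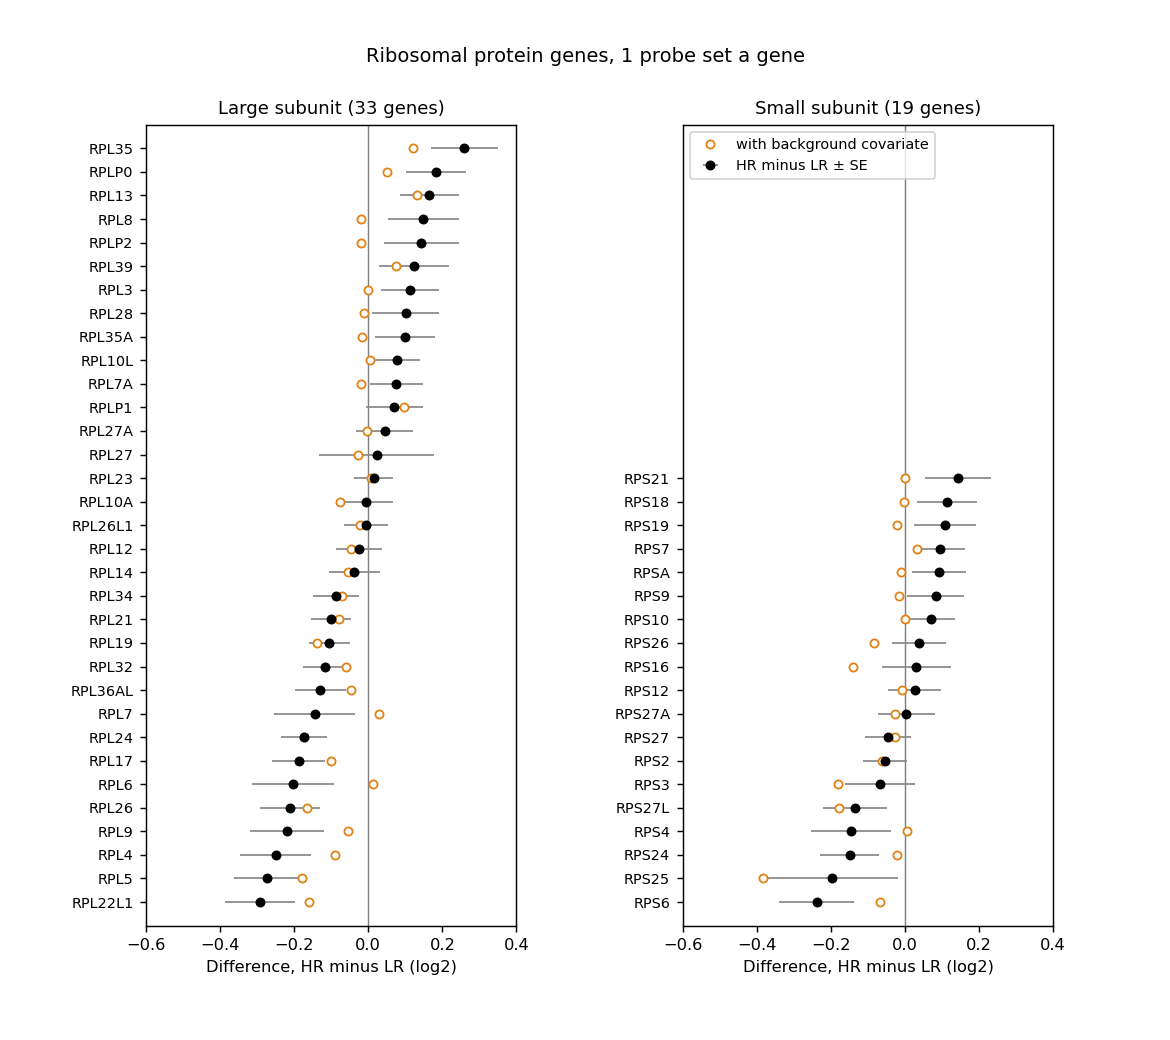
Difference between HR and LR (log2, HR minus LR) for the 33 large subunit and 19 small subunit genes with a tested probe set, 1 probe set a gene. Black points with bars are limma differences ± SE over 10 HR and 10 LR animals, and open points are the differences with the background mean of each array as a covariate. Large subunit genes ran from -0.29 (RPL22L1) to 0.26 (RPL35), and most open points lie closer to 0.

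Within the large subunit the lower values in HR were led by RPL22L1, RPL5, RPL24, RPL17, RPL4, RPL26 and RPL9. RPL5 forms with RPL11 and the 5S ribosomal RNA a particle that docks on the large subunit and that, when free, binds the p53 regulator MDM2. Its lowest, median and highest signals were 9.74, 10.06 and 10.37 in HR, against 10.11, 10.36 and 10.50 in LR. The groups overlapped, but only 1 of the 10 HR animals lay above the LR median. The difference was -0.27 ± 0.09 (SE, limma adjusted p = 0.157), and the second RPL5 probe set, which correlated with the first at r = 0.858 over the 20 arrays, gave -0.18 ± 0.08 (SE, limma adjusted p = 0.176). Genes picked for a small p in this comparison lean to 1 side by the choice. Counts of animals past the LR median are therefore a description, with no share over all tested probe sets beside them.

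RPL22L1, a paralog of RPL22, ran from 5.45 to 6.08 in HR with a median of 5.82 and from 5.83 to 6.49 in LR with a median of 6.01. HR replicate 6 was the lowest of all and LR replicate 3 the highest. The difference of -0.29 ± 0.09 (SE, limma adjusted p = 0.157) was the lowest of any member gene read from its brightest probe set. RPL24, which forms a bridge between the subunits, was low in most HR animals. Its HR signals lay between 8.89 and 9.13 with a median of 9.04, and its LR signals lay between 9.04 and 9.47 with a median of 9.15. No HR animal (0 of 10) reached the LR median, and the difference was -0.17 ± 0.06 (SE, limma adjusted p = 0.157).

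RPL17, a protein at the mouth of the exit tunnel, likewise had 0 of 10 HR animals above the LR median. It ran from 5.28 to 5.66 in HR with a median of 5.48, against 5.37 to 5.85 in LR with a median of 5.70. The difference was -0.19 ± 0.07 (SE, limma adjusted p = 0.159). RPL26, which also lies at the tunnel mouth, differed by -0.21 ± 0.08, and RPL4, which lines the tunnel, by -0.25 ± 0.10. For RPL9 the difference was -0.22 ± 0.10. These 3 genes had limma adjusted p from 0.159 to 0.178.

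On the higher side stood RPL35, RPLP0 and RPL13. RPL35, another protein of the tunnel mouth, had signals from 9.37 to 10.13 in HR with a median of 9.69 and from 8.90 to 9.68 in LR with a median of 9.45. HR replicate 6 was the highest animal and LR replicate 3 the lowest, and 9 of 10 HR animals exceeded the LR median. The difference was 0.26 ± 0.09 (SE, limma adjusted p = 0.157), and it was 0.20 without LR replicate 3. For RPL13 the signals ran from 5.60 to 6.16 in HR with a median of 5.79, against 5.40 to 5.93 in LR with a median of 5.68, and the difference was 0.17 ± 0.08 (SE, limma adjusted p = 0.188). RPL8, a protein near the site of peptide bond formation, came next with 0.15 ± 0.10, and there LR replicate 3 stood at 9.07, below every other animal, and without it the difference was 0.07.

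The 5 measured proteins of the tunnel mouth thus did not move one way. RPL35 and RPL39 were higher in mean in HR, and RPL17, RPL26 and the brightest RPL19 probe set were lower. The median of the 5 was -0.11, which is the value of that RPL19 probe set, against 0.05 for all tested probe sets. Of the 15 tested RPL19 probe sets 10 were higher in mean in HR, and the mean of RPL19 probe sets differed by 0.056. The median therefore rests on the choice of RPL19 probe set.

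The P stalk is the arm of the large subunit that calls in the elongation factors. It is built on RPLP0, which holds the acidic proteins RPLP1 and RPLP2. All 3 were higher in mean in HR. RPLP0 ran from 9.43 to 9.83 in HR with a median of 9.66, against 9.01 to 9.67 in LR with a median of 9.53. The LR animals reached lower and 8 of 10 HR animals exceeded their median. The difference was 0.18 ± 0.08 (SE, limma adjusted p = 0.174). Without LR replicate 3 it was 0.13, with an unadjusted limma p of 0.0595. RPLP2 differed by 0.14 ± 0.10, and by 0.08 without LR replicate 3. RPLP1 differed by 0.07 ± 0.08, and by 0.04 without HR replicate 3 or 0.11 without HR replicate 10. RPLP1 had 2 further tested probe sets, with differences of 0.34 ± 0.14 and 0.18 ± 0.10, and in the first of these 10 of 10 HR animals lay above the LR median. LR replicate 3 was the lowest animal in both, and without it the first differed by 0.25.

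**Figure D2:**
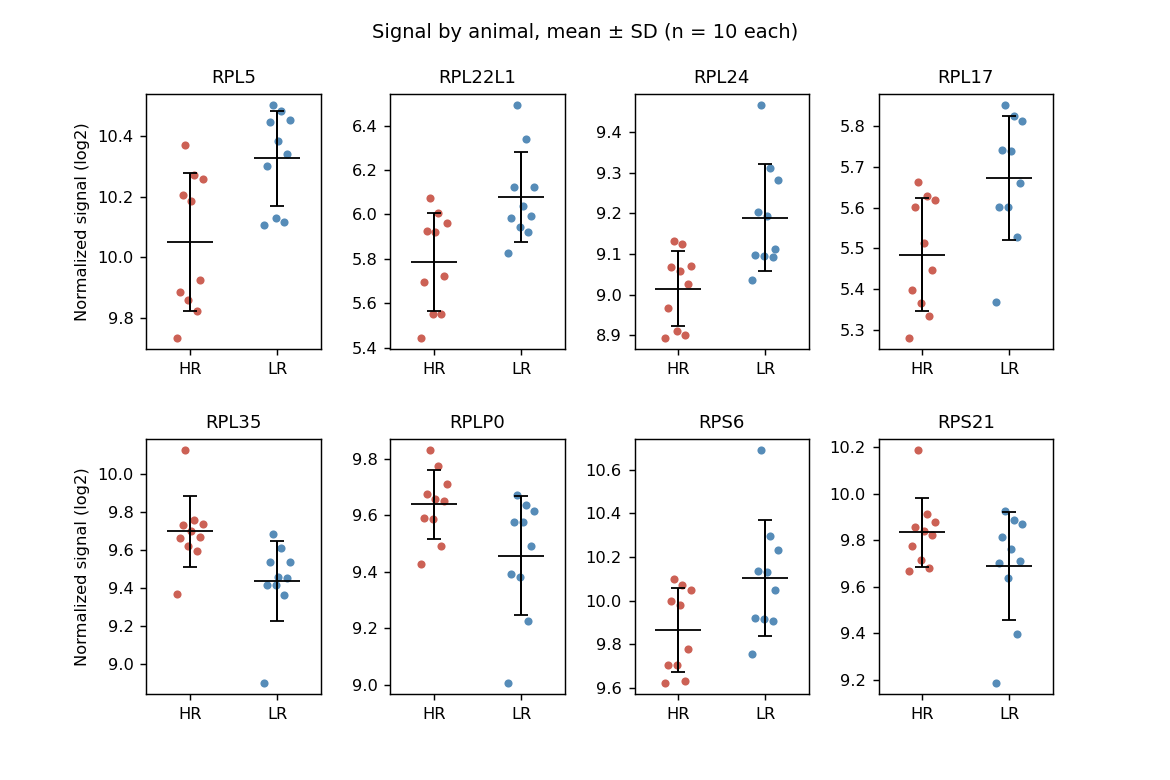
Normalized signal (log2) of 8 member genes in each animal, HR on the left and LR on the right of each panel. Points are animals, the long bar is the group mean and the whiskers are 1 SD (n = 10 each). HR and LR overlap in every panel, and in RPL24 and RPL17 0 of 10 HR animals exceed the LR median. The 8 genes were picked for a small p in this comparison, so these counts are a description.

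In the small subunit RPS6 alone reached an unadjusted p under 0.05. RPS6 is the substrate that names the S6 kinases, and its phosphorylated form is widely used as a sign of recent neuronal activity. The array measures its mRNA and not its phosphorylation. Signals ran from 9.63 to 10.10 in HR with a median of 9.88, against 9.76 to 10.69 in LR with a median of 10.09. HR replicate 6 was the lowest animal and LR replicate 3 the highest, and 1 of 10 HR animals exceeded the LR median. The difference was -0.24 ± 0.10 (SE, limma adjusted p = 0.170), and without LR replicate 3 it was -0.17 with an unadjusted limma p of 0.052. The second RPS6 probe set gave -0.26 ± 0.09 (SE, limma adjusted p = 0.157) with 0 of 10 HR animals above the LR median.

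Other small subunit genes differed by less. RPS24 (-0.15 ± 0.08), RPS4 (-0.15 ± 0.11) and RPS27L (-0.13 ± 0.09), a paralog of RPS27 that p53 induces, followed RPS6 on the lower side in order of p. Without HR replicate 10 RPS4 differed by -0.08. RPS21 led the higher side, with signals from 9.67 to 10.19 in HR and a median of 9.83, against 9.19 to 9.92 in LR and a median of 9.74. The difference for RPS21 was 0.14 ± 0.09 (SE, limma adjusted p = 0.266), and it was 0.09 without LR replicate 3, the lowest animal. RPS18 differed by 0.11 ± 0.08, RPS7 by 0.10 ± 0.07 and RPSA, which is also known as a laminin receptor, by 0.09 ± 0.07. Without LR replicate 3 RPS18 differed by 0.06 and RPSA by 0.05, and without HR replicate 6 RPS7 differed by 0.055. The 3 proteins of the beak, the tip of the small subunit head, had a median of 0.03 in their brightest probe sets, against 0.05 for all tested genes. All 3 were higher in mean there, and 0 of them had an unadjusted limma p under 0.05. RPS27A differed by only 0.004, and by -0.028 without LR replicate 3. The second tested probe sets of RPS10 and RPS12 lay on the other side, at -0.015 and -0.013. Of the 4 tested proteins around the mRNA entry and exit, 2 were higher in mean and 0 had an unadjusted p under 0.05. RPS14, which lines the exit, was too dim to test.

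Paralogs are second copies that have been adapted or kept beside the common gene, and 5 were tested. RPL22L1, described above, was the only one with an unadjusted p under 0.05. RPL36AL differed by -0.13 ± 0.07 and RPS27L by -0.13 ± 0.09. RPL10L, an intronless copy of RPL10 known in mouse for its role in sperm formation, gave 0.08 ± 0.06 (0.04 without LR replicate 3 and 0.05 without HR replicate 6), and RPL26L1 gave -0.01 ± 0.06. RPS19BP1, the binding partner, differed by 0.21 ± 0.11. Of 8 listed Diamond-Blackfan anaemia genes on the array, in which inherited loss of 1 copy impairs red cell formation, 7 were tested, 5 were higher in mean and 1 (RPL5) had an unadjusted p under 0.05.

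The symbol RPL19 was carried by 74 probe sets, while the next largest number for a member was 8. Only 15 of the 74 were bright enough to test, and 36 lay below the background mean on all 20 arrays. The means of the 74 ran from 1.47 to 7.80. Among the 15 tested, 10 were higher and 5 lower in mean in HR, with differences from -0.43 to 0.27, and 4 of the higher and 2 of the lower ones had an unadjusted limma p under 0.05. Their pairwise correlations over the arrays had a median of 0.19 and ran from -0.72 to 0.83, so probe sets under this symbol did not follow each other. The brightest one, which stands for the gene here, ran from 7.66 to 7.87 in HR with a median of 7.72, against 7.70 to 8.04 in LR with a median of 7.86. Its difference was -0.11 ± 0.06 (SE, limma adjusted p = 0.209). Without RPL19 the counts over the family were 4 higher and 11 lower of 72 probe sets, or 5.56% and 15.3%, against the 12.3% and 14.0% of all tested probe sets.

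**Figure D3:**
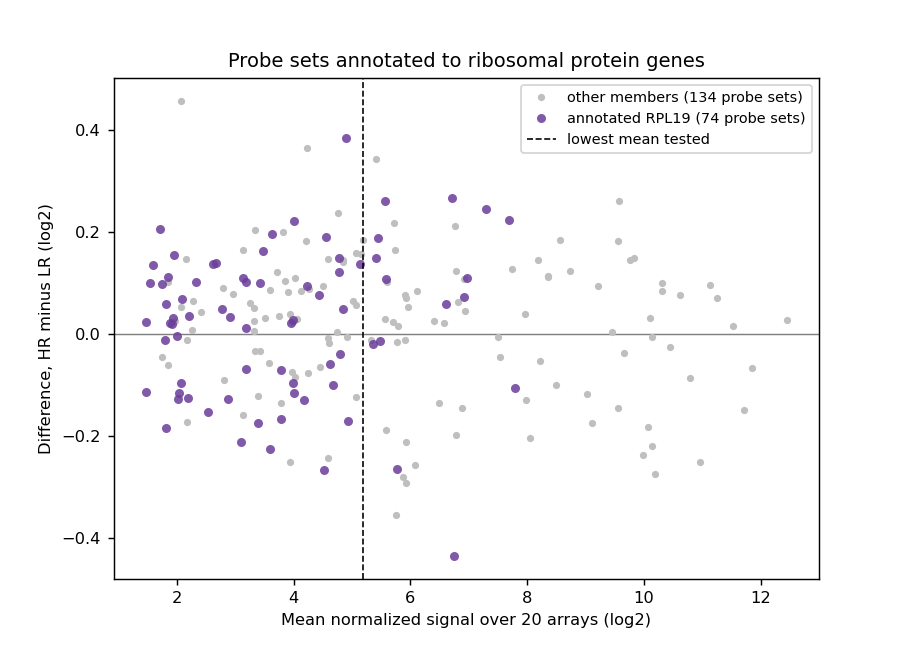
Difference between HR and LR (log2, HR minus LR) against the mean normalized signal over 20 arrays for all 208 member probe sets. Purple points carry the symbol RPL19 and grey points the other 63 symbols, and the dashed line marks the lowest mean tested (5.18). The purple points spread from 1.47 to 7.80 in mean and lie on both sides of 0.

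Among the 17 genes with more than 1 tested probe set, 9 had all their differences on one side of 0 and 8 had them on both. RPL6 gave -0.20 ± 0.11 in its brighter probe set, and -0.13 there without LR replicate 3, and -0.35 ± 0.11 in the other. RPL5, RPL6, RPLP0 and RPS6 were one-sided, with correlations between their probe sets of 0.858, 0.669, 0.813 and 0.781. RPL10A was two-sided. Its 3 tested probe sets gave -0.28, -0.01 and 0.12, and the brightest had signals from 9.99 to 10.48 in HR, against 9.77 to 10.35 in LR. Ribosomal protein genes have many processed copies in mammalian genomes, and which loci each probe set reads was not analysed here.

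The median SD within groups was 0.17 over the 53 genes, against 0.21 over all 10307 tested genes read the same way. RPS25, which some viral and cellular mRNAs need for initiation at internal sites, had the widest spread, with an SD of 0.43 that 7.43% of all tested probe sets exceeded. Its signals ran from 5.998 to 7.07 in HR with a median of 6.84, against 5.93 to 7.29 in LR with a median of 7.12. The 20 values left a gap of 0.37 between 6.44 and 6.82. Below the gap lay 7 animals (HR replicates 2, 5, 6 and 7 and LR replicates 3, 6 and 8) and above it the other 13. No HR animal (0 of 10) exceeded the LR median, but the low LR animals drew the means together, and the difference was -0.20 ± 0.18 (SE, limma adjusted p = 0.426). It was -0.30 without LR replicate 3 and -0.12 without HR replicate 5. RPL27 came next with an SD of 0.38, running from 5.36 to 6.43 in HR with a median of 5.65 and from 5.16 to 6.23 in LR with a median of 5.77. The difference for RPL27 was 0.02 ± 0.16 (SE, limma adjusted p = 0.922).

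RPL10 was too dim to test, and its brighter probe set, with a mean near the background, lay below the background mean on 8 of the 20 arrays. RPL10 joins the large subunit late in its assembly, and this probe set had an SD within groups of 1.15. Signals ran from 1.39 to 5.92 in HR and from 1.96 to 5.95 in LR. One animal of each group (HR replicate 10 and LR replicate 5) fell below 2 while the other 18 lay at 3.40 or above. The group means were 4.22 ± 1.21 in HR and 4.29 ± 1.07 in LR (SD, n = 10 each).

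**Figure D4:**
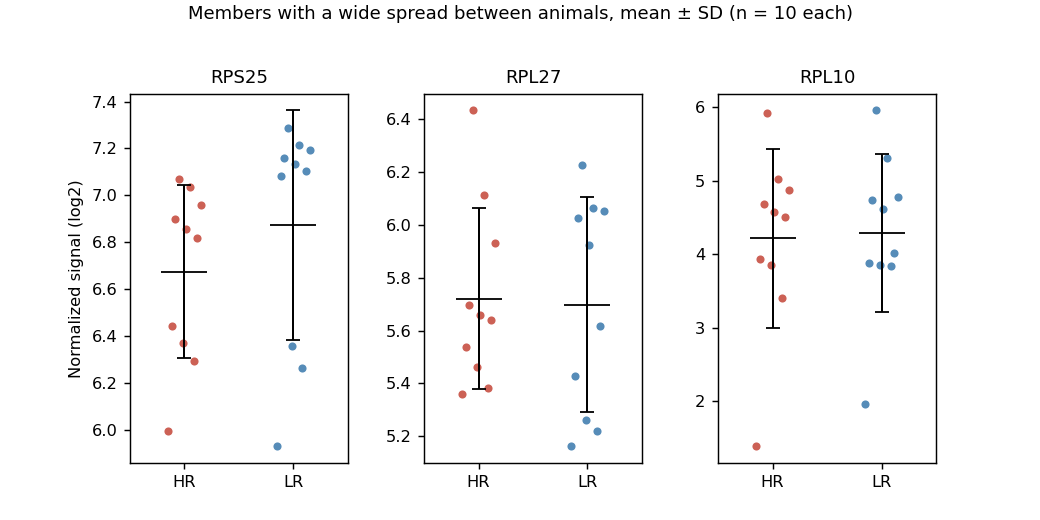
Normalized signal (log2) in each animal for RPS25, RPL27 and RPL10, HR on the left and LR on the right. Points are animals, the long bar is the mean and the whiskers are 1 SD (n = 10 each). RPS25 leaves a gap between 6.44 and 6.82 in both groups, and 1 animal of each group falls below 2 in RPL10.

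Members did not vary as one block across the arrays. Over all 1378 pairs of the 53 genes the median Pearson correlation was 0.253, and 66.0% of pairs were above 0. As deviations from the group means the median was 0.271. Pairs within the small subunit had a median of 0.327, pairs within the large subunit 0.216 and mixed pairs 0.247. These pairs share arrays and genes and are given as a description. Pairs of all tested genes were not taken beside them, so no trait particular to the family is read from them.

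The antigenomic background of the arrays was higher in mean in HR, and part of the member genes correlated with it. Of the 53 genes, 19 correlated with the antigenomic background mean at r above 0.5 and 12 at r below -0.5. All 19 of the first kind were higher in mean in HR (median difference 0.10) and all 12 of the second were lower (median difference -0.20). Genes picked by this correlation over the same arrays lean that way by the choice itself. Both counts are therefore a description and no separate evidence. Every one of these 31 kept the sign of its correlation within the HR animals, within the LR animals and without the 2 arrays farthest from the median background (LR replicate 3 and HR replicate 4). Some were weak within a group, such as RPL5 with r = -0.13 within LR (-0.86 within HR). RPL10L had r = 0.326 within HR (0.823 within LR). The shares were 35.8% and 22.6% of the member genes, against 38.5% and 29.0% of all tested genes read the same way.

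At the top stood RPL8 (r = 0.860, rho = 0.815) and RPLP0 (r = 0.853, rho = 0.740), and at the bottom RPL6 (r = -0.908, rho = -0.841), RPL4 (r = -0.840, rho = -0.732) and RPS24 (r = -0.837, rho = -0.668). The permutation p was 1e-05 for r in RPL8, RPLP0, RPL6 and RPL4, the smallest that 100000 permutations can give, and 2e-05 in RPS24. Adjusted over the 53 genes the permutation p for r was 0.000132 for the first 4 and 0.000212 for RPS24, and for rho it was 0.000795 for RPL8, 0.0045 for RPLP0, 0.00053 for RPL6, 0.0045 for RPL4 and 0.00848 for RPS24. Without the 2 farthest arrays r was 0.667, 0.679, -0.818, -0.767 and -0.676 in the same order.

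**Figure D5:**
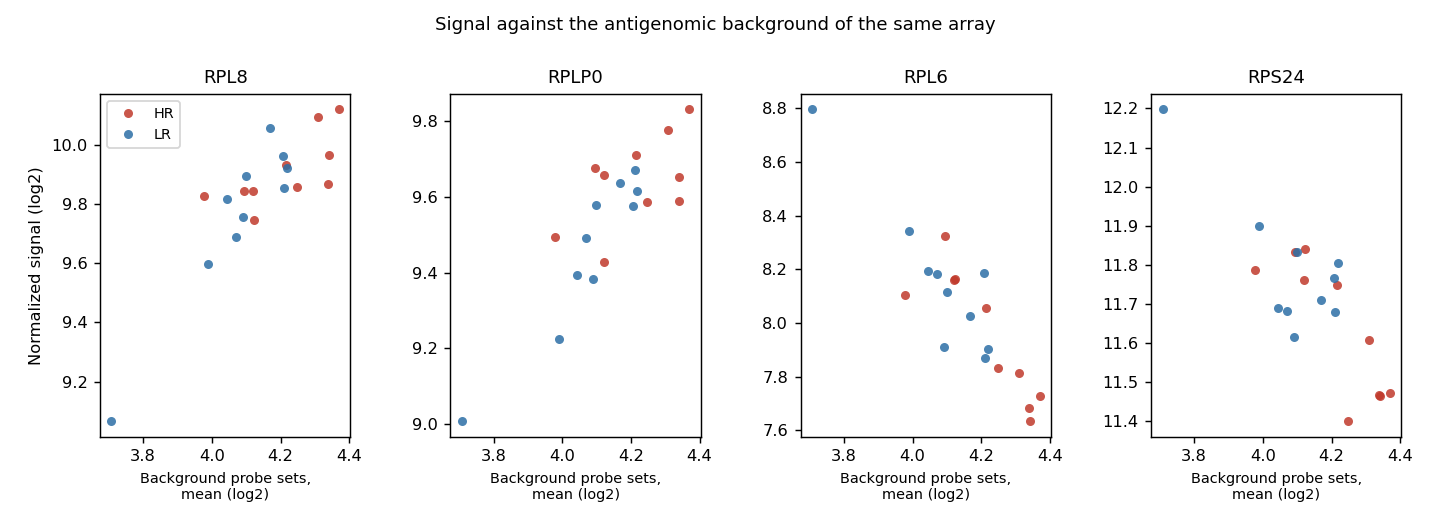
Normalized signal (log2) of RPL8, RPLP0, RPL6 and RPS24 against the mean of the 69 antigenomic background probe sets on the same array (log2). Red points are HR animals and blue points LR animals. RPL8 and RPLP0 run upward (r = 0.860 and 0.853) and RPL6 and RPS24 downward (r = -0.908 and -0.837), with LR replicate 3 at the left of each panel.

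With the background mean as a covariate, 1 of the 87 member probe sets was higher and 6 were lower in HR at an unadjusted limma p under 0.05, against 1.99% and 2.28% of all tested probe sets. The median difference was -0.02 for the members and 0.00 for all tested probe sets, and 39 of the 53 genes (73.6%) were lower in mean in HR, against 49.4% of all tested genes. RPL24 held its value at -0.17 (unadjusted limma p = 0.0148). RPL5 stood at -0.18, the brightest RPL19 probe set at -0.14, RPS16 at -0.14 and RPS25 at -0.38, each with an unadjusted limma p under 0.05. RPS16 had stood at 0.03 without the covariate, so its sign turned. RPS6 shrank to -0.07, RPLP0 to 0.05 and RPL4 to -0.09, and RPL8 turned to -0.02. No member passed the adjusted threshold, with adjusted p of 0.9997 for each of these genes. What part the background plays in the differences was not tested.

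The counts were also taken over fewer arrays. Without LR replicate 3, 6 member probe sets were higher and 11 lower in HR, against 7.86% and 10.6% over the array. Without the 4 arrays least like the rest, 1 was higher and 7 lower, against 2.82% and 2.95%, and 45 of the 53 genes (84.9%) were lower in mean in HR with a median of -0.06, against 50.6% of all tested genes with a median of -0.0012. RPL24 (-0.15) and RPL26 (-0.20) were among the lower ones there. In the labels 9 of the 10 HR animals carried a higher animal number than every LR animal, and with that number as a covariate 1 probe set was higher and 2 lower, against 2.28% and 1.63%.

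The genes around the ribosome were read from lists of the same pathway, 1 probe set a gene, beside the 14.4% higher and 15.6% lower of all tested genes. Of 7 tested elongation factors and other TOP mRNAs, 1 was higher and 3 were lower in HR at an unadjusted limma p under 0.05. EEF1A1, which brings aminoacyl-tRNA to the ribosome, gave -0.20 ± 0.09, HNRNPA1 -0.26 ± 0.09, NAP1L1 -0.39 ± 0.16 (-0.25 without LR replicate 3) and EEF1D, an exchange factor for EEF1A, 0.24 ± 0.09. Of 24 tested ribosome biogenesis genes 5 were higher and 2 lower. EIF6, which keeps a finished large subunit from joining too early, gave 0.38 ± 0.12. RPF2, which helps to load the 5S particle with RPL5, gave -0.33 ± 0.11, and UBTF, which activates ribosomal RNA genes, gave 0.19 ± 0.06. Of 11 tested genes of mTORC1 and TOP mRNA control, 10 were higher in mean, 3 of them (AKT1S1, MLST8 and TSC2) at an unadjusted p under 0.05, and RPS6KB1, the kinase of RPS6, was lower at -0.26 ± 0.11. Among all 10307 tested genes 5991 were higher in mean, and whether the pathway as a whole moved one way was not tested. Without LR replicate 3 RPS6KB1 stood at -0.17 and TSC2 at 0.15, against 0.22 with it. Of 56 tested mitochondrial ribosomal proteins 7 were higher and 9 lower, with a median of 0.07, and the lower one with the smallest p, MRPS10, stood at -0.34 ± 0.10. None (0) of these genes passed the adjusted threshold in limma, and with the background covariate 0 of the elongation, biogenesis and mTORC1 genes and 4 of the mitochondrial ones, all lower, had an unadjusted p under 0.05, against 1.96% higher and 2.05% lower of all tested genes.

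Markers of cell types moved in the same comparison. Of 8 tested neuron markers 6 were lower in HR at an unadjusted limma p under 0.05, with a median of -0.24, and the list mean ranged over 10.1 to 10.6 in HR and 10.3 to 10.9 in LR. Of 7 astrocyte markers 1 was higher and 3 lower, with list means from 10.5 to 10.8 in HR and from 10.6 to 11.3 in LR. Of 7 microglia markers 1 was higher and 0 lower, with list means from 8.72 to 9.14 in HR and from 8.63 to 9.01 in LR. Of the other lists, excitatory neurons had 2 higher and 0 lower, oligodendrocytes 0 and 2, inhibitory neurons and oligodendrocyte precursors 0 and 1 each, endothelium and choroid plexus 1 and 0 each, and erythroid cells 0 and 0. Of the 54 tested markers of all types 6 were higher and 13 lower, against 14.4% and 15.6% of all tested genes, and 0 passed the adjusted threshold. With the background covariate 0 of the 8 neuron markers kept an unadjusted p under 0.05, and 3 markers of all types had one: SLC1A3 (astrocyte) and MAG (oligodendrocyte), lower in HR, and TREM2 (microglia), higher in HR. Their part in the ribosomal protein values was not tested.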

How the data were processed

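Amygdala RNA of 20 pigs was hybridized to Affymetrix Snowball arrays, 1 per animal. The authors scanned them with GCOS 1.1.1, per the submitters' processing notes, and deposited 47845 probe set values as log2 after background correction, quantile normalization and robust multichip averaging, per the methods. This ties all arrays to 1 distribution, so a shift of all genes cannot be seen. Symbols are those of the platform, can be outdated and come with no genome build. Arrays give no read depth, and their number limits precision. The contrast of HR minus LR was fitted in limma 3.58.1 (R 4.3.3, lmFit, eBayes, 2-sided, no covariate) on 23860 probe sets outside the 123 controls, with Benjamini-Hochberg adjustment. Pearson correlations and the 2-sided permutation tests were computed in Python 3.11.15. The Spearman correlations (rho), ranks and adjusted permutation p came from scipy 1.17.1. The fit was tested on simulated data. Named members were the 4 with the smallest p in each direction and subunit, the P stalk genes, RPSA, RPL5, RPL11, paralogs, RPS19BP1, the 3 with the widest spread between probe sets, the 3 with the largest SD, and up to 4 genes of each other list. RPL4, RPL9, RPL10, RPL26 and RPS16 were added after their values were seen. Members and lists were chosen with earlier results of these data known. Alternatives changed the filter, normalization, weights, covariates, arrays and probe sets per gene. Replicates are numbered in accession order. Sequences were not analysed here.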

Additional observations from a re-analysis of the deposited data

Results flagged for a closer look

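Across the named members, 54 groups of 10 values were searched for an animal far from the others of its group, and 13 were found. For independent values chance gives about 1 in 20 groups, but these groups share arrays. The same search over all tested probe sets was not made, so no trait of the members is read from the count. LR replicate 3 accounted for 8 of the 13. It was low in RPL10L at 5.53 (nearest LR animal 5.82), RPL35 at 8.90 (9.36), RPL8 at 9.07 (9.60) and RPS18 at 7.83 (8.22). It was high in RPL36AL at 8.40 (8.17), RPL6 at 8.80 (8.34), RPS24 at 12.20 (11.90) and RPS4 at 10.04 (9.69). HR replicate 6 accounted for the other 5 and was high in each: RPL10A at 10.48 (nearest HR animal 10.18), RPL10L at 6.18 (6.02), RPL35 at 10.13 (9.76), RPS21 at 10.19 (9.91) and RPS7 at 11.55 (11.22). Both arrays are among the 4 least like the rest of the series.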

How the results depend on the processing

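No member passed the adjusted threshold under any alternative run. The count of probe sets higher in HR at an unadjusted limma p under 0.05 (8) became 5 with a minimum mean of 6, 3 with array weights, 1 with the background covariate, with animal number or without the 4 least similar arrays, 3 with 1 probe set or the mean of probe sets per gene, and 4 without RPL19. The count of lower ones (13) became 8 with the minimum of 6, 6 with the background covariate, 2 with animal number, 7 without the 4 arrays and 8 with 1 probe set a gene. Over probe sets, the large subunit median (0.025) became -0.045 and the small subunit median (0.026) became -0.059 without the 4 arrays. With the background covariate the large and small subunit medians were -0.024 and -0.021, and with animal number 0.015 and -0.056. Differences of 12 named members changed sign, RPL6 (otherwise -0.20) the farthest from 0 among them. RPS16, added later, is outside that count and also changed sign with the background covariate. With quantile normalization RPL10A was 0.011 and RPL26L1 0.015, and with median centring they were 0.011 and 0.010. With the mean of probe sets RPL19 was 0.056 and RPL26L1 0.0074. With the background covariate RPL27 was -0.027, RPL6 0.012, RPL8 -0.021, RPLP2 -0.021, RPS18 -0.0036, RPS4 0.0058 and RPSA -0.011. Without the 4 arrays RPL10L was -0.012, RPL27 -0.14, RPL8 -0.0081, RPLP2 -0.047, RPS21 -0.0094 and RPSA -0.0046, and RPL27 was -0.095 with array weights. Leaving out 1 animal at a time gave 6 to 10 higher and 11 to 16 lower probe sets, RPL10A from -0.047 to 0.018, RPL26L1 from -0.027 to 0.017 and RPL27 from -0.057 to 0.082. The cause of these changes was not tested. No paired analysis was possible because the labels give no shared replicate numbers. Leaving out RPL19, and leaving out probe sets whose ID ends in s_st or x_st, were chosen after seeing the data. Dim probe sets and the number of arrays limit these values.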
